A study of Mus musculus with 2 samples.

Results

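The proteins that bring an insulin or glucagon granule to the plasma membrane and fuse it there were followed here through their RNA, in single cells of mouse pancreatic islets. The genes are 10 of the 27998 in the deposited gene list: the fusion proteins Snap25, Stx1a and Vamp2, the synaptotagmins Syt4, Syt7 and Syt13, the small GTPases Rab3a, Rab27a and Rab37, and the Rab effector Sytl4, also called granuphilin. They were chosen by name for their role, and no measured value entered the rule, but earlier results of these data were known at the time. The study prepared islets of male mice 8 weeks old that had been fasted for 12 hours, in 2 groups of 1 library each: wild type (WT), and mice with a miR-203 transgene (TG) specific to beta cells. The labels name no promoter for the transgene and no number of animals per library. The levels below come from the WT library. The copy of the TG matrix used here held too few counts for a comparison, so nothing below bears on the effect of the transgene. With 1 library there is no replicate check, and all intervals are exact 95% intervals that cover counting error only.

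Regulated secretion runs through a fixed series of steps. A Rab protein on the granule, in its GTP form, recruits effectors that tether the granule to the plasma membrane. A vesicle SNARE such as VAMP2 then zippers with the membrane SNAREs syntaxin and SNAP25, and Ca2+ binding to synaptotagmins triggers fusion. In beta cells, SYT7 is a known Ca2+ sensor of insulin release. Granuphilin binds RAB27A on the insulin granule and docks it. Each step is served by a gene family, and which member a cell type uses is a question the single-cell data can address at the RNA level.

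The WT library held 118523180 UMIs, the unique molecular identifiers that count captured transcripts, and 4547 barcodes with at least 5610 UMIs and 500 genes held 88.3% of them. The median barcode had 21643 UMIs, and the 10th and 90th percentiles were 11071 and 36086. Barcodes were classed by their main hormone: 3261 as beta (insulin at least 30% of UMIs), 471 as alpha (Gcg at least 8%), 149 as delta (Sst at least 3%) and 117 as PP (Ppy at least 8%), with 549 in no class. Of the last, 62 carried macrophage markers, 99 endothelial markers and 388 neither. A barcode that met several limits, as 63 did, went to the first of these classes. Levels are UMIs per 1000000 non-hormone UMIs (CPM below), since Ins1, Ins2, Iapp, Gcg, Sst, Ppy and Pyy take a different part of each class. Marker genes that the limits did not use followed the classes. Ucn3 and G6pc2 stood at 562 and 679.5 CPM in beta barcodes and at no more than 44.5 and 61.4 in the other endocrine classes, Irx2 at 75.8 in alpha barcodes and Hhex at 158 in delta barcodes. The macrophage marker list summed to between 115 and 134 in the 4 endocrine classes, against 15082 in macrophage-marker barcodes. Mafa, a beta cell transcription factor, had only 9 UMIs in all beta barcodes. The labels' extraction text describes sorted gut goblet cells, whereas the hormones mark this library as islet. A 3′ tag library counts about 1 UMI per transcript whatever its length, so levels were compared between genes without a length term.

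Sequences were available for some of the regulatory regions of these genes. Among the 10 genes, 4 had a promoter window in the RefSeq table (GRCm38.p6), and 3 of those, Sytl4, Rab3a and Rab27a, are genes that stood higher in beta barcodes. The 250 bases before their starts are shown 5′ to 3′ on the gene's strand so that the windows can be compared, with 1 start for Rab3a and both for Rab27a. Capitals mark matches, on either strand, to any of 7 motifs: CAGATG and CAGCTG (E-boxes), TAATTA (homeodomain core), GGGCGG (GC box), TGCTGA (Maf core), TGACG (CRE core) and TTCAGCACC (left part of RE1). None overlaps another motif in these windows.
Sytl4, chrX:133981813-133982062, minus strand: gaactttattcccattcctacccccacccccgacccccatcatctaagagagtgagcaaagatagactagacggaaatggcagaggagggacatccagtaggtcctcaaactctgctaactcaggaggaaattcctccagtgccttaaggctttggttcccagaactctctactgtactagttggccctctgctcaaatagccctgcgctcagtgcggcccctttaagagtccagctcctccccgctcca
Rab3a, chr8:70754453-70754702, plus strand: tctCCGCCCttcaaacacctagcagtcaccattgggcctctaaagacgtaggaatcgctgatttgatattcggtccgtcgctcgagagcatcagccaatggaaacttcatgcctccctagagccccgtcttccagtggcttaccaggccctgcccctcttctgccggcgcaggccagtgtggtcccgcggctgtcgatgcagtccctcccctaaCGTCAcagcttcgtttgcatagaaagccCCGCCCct
Rab27a, first start, chr9:73044560-73044809, plus strand: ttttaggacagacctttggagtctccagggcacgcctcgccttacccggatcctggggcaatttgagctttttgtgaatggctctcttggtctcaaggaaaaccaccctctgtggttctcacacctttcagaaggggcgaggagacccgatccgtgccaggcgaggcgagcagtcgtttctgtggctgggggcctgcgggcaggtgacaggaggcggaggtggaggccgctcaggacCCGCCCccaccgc
Rab27a, second start, chr9:73063898-73064147, plus strand: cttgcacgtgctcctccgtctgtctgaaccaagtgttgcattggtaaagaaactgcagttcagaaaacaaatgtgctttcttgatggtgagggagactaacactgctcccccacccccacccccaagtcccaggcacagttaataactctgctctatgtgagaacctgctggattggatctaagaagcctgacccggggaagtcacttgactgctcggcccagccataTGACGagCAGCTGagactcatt
The Sytl4 window held none of the 7. GC boxes lay at both ends of the Rab3a window, 247 and 8 bases before the start, with a CRE core 36 bases before it. A GC box lay 13 bases before the first Rab27a start, and a CRE core and an E-box 22 and 15 bases before the second. Of 32851 windows of the same length, 32.7% held a GC box, 17.8% a CRE core and 13.0% the CAGCTG E-box. No motif was in the windows of all 3 genes. A second Rab3a start, not shown, had the CAGCTG E-box 185 bases before it. The window of Stx1a, which was not called higher in beta barcodes, is not shown either. It held that E-box, a GC box and a CRE core, 33, 74 and 144 bases before the start. A match is a description of the letters and not a binding site.

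The miRNA of the transgene, miR-203-3p, is encoded at chr12:112130927-112130948 (RefSeq, GRCm38.p6). It is shown because its seed, bases 2 to 8 in capitals, defines which of the 10 genes could carry a seed match.
miR-203-3p: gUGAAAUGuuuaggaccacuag
A match to the seed reads CATTTCA in a 3′ UTR. Of the 10 genes, 1, Syt4, held such a match in its longest annotated 3′ UTR (GENCODE M21), with 1 site in 2375 bases. Over all 20676 genes with a 3′ UTR, 15.9% held at least 1 match. A match says nothing about repression in these cells.

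The 10 genes made up a larger part of the non-hormone RNA in beta barcodes than in the other endocrine classes. Their summed level was 1916 CPM in beta, 1190 in PP, 1007 in delta and 806 in alpha barcodes, and 246 and 134 in endothelial-marker and macrophage-marker barcodes. Syt13 was highest of the 10 in beta and delta barcodes, and Snap25 in alpha and PP barcodes. In beta barcodes 9 of the 10 ranked within the top 10% of the 17983 genes detected, and Stx1a alone lay near the middle. Droplets of 1 to 200 UMIs, which hold free RNA of the preparation, had a sum of 1563 CPM. Read from foreign hormone (Ins2 outside beta barcodes, Gcg in them), free RNA could make up at most 9.93% of the RNA in beta, 9.50% in alpha, 15.2% in delta and 14.9% in PP barcodes.

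**Figure D1:**
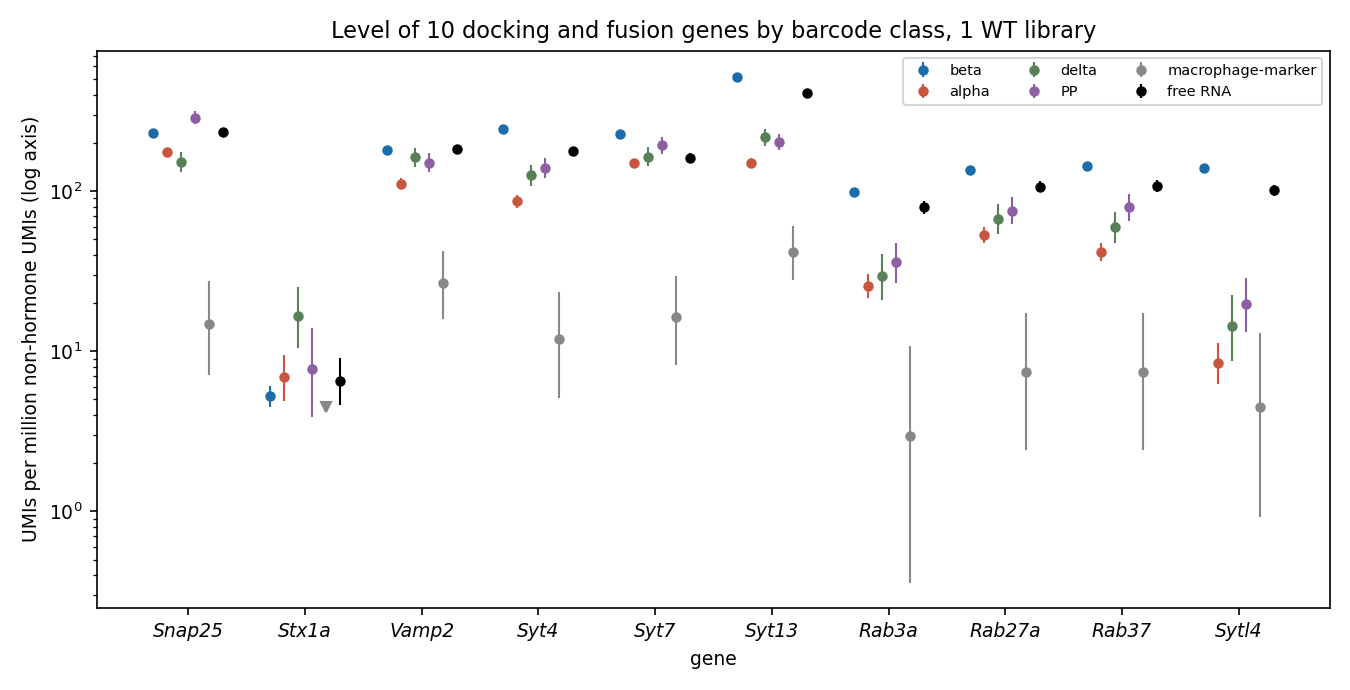
Level of the 10 genes (CPM, UMIs per 1000000 non-hormone UMIs, log axis) in 4 endocrine classes, macrophage-marker barcodes and free RNA of the WT library. Points are summed UMIs of a class, bars exact 95% Poisson intervals, and the triangle marks the level that 3 UMIs would give where none was seen (Stx1a in macrophage-marker barcodes). Sytl4 lies at 140.2 in beta and 8.50 in alpha barcodes, whereas Snap25 spans 152 to 287 over the endocrine classes.

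Snap25 and Vamp2 spanned less than 2-fold over the endocrine classes. Snap25 (chr2:136713453-136782428, GRCm38), the membrane SNARE that gives 2 helices to the complex, stood at 287 CPM in PP, 229 in beta, 175 in alpha and 152 in delta barcodes. PP exceeded beta by 1.25-fold (interval 1.13 to 1.39) and beta exceeded alpha by 1.31-fold (1.23 to 1.40), while alpha and delta did not differ beyond counting error. Snap25 was thus the only one of the 10 genes with its highest level in PP barcodes. Vamp2 (chr11:69088490-69092384), the vesicle SNARE, stood at 181 in beta, 162 in delta and 150 in PP barcodes, which as neighbours did not differ beyond counting error, and at 111 in alpha barcodes. Beta exceeded PP, which is not its neighbour, by 1.21-fold (1.05 to 1.39). Vamp2 was also the highest of the 10 in endothelial-marker barcodes, at 72.3 CPM.

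Stx1a (chr5:135023482-135051100), the neuronal membrane syntaxin, was near the limit of detection in every class. It had 189 UMIs in 3261 beta barcodes, or 5.23 CPM, with 6.87 in alpha, 7.77 in PP and 16.6 in delta barcodes. Delta exceeded beta by 3.17-fold (1.94 to 4.94), but no class differed from its neighbour in this order beyond counting error. Endothelial-marker barcodes, at 16.2 CPM from 13 UMIs, lay as high as delta barcodes. Macrophage-marker barcodes had no UMI, which allows up to 5.49 CPM. A 3′ count depends on the annotated transcript end, and whether reads beyond it were lost for Stx1a was not tested.

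The synaptotagmins divided into 2 that stood higher in beta barcodes and 1 that was nearly even. Syt13 (chr2:92915098-92956058), an atypical synaptotagmin whose C2 domains lack the Ca2+-binding residues, stood at 514 CPM in beta (18561 UMIs), 217 in delta, 203 in PP and 149.5 in alpha barcodes. Beta exceeded alpha by 3.44-fold (3.21 to 3.69), and delta and PP did not differ beyond counting error. Syt4 (chr18:31437808-31447406, minus strand), also an atypical synaptotagmin, stood at 242 in beta, 139 in PP, 125 in delta and 86.1 in alpha barcodes. Its beta to alpha ratio was 2.81 (2.57 to 3.09). Syt7 (chr19:10389090-10453180), the high-affinity Ca2+ sensor, stood at 226 in beta, 193 in PP, 164 in delta and 149 in alpha barcodes. Its span of 1.52-fold between beta and alpha was the smallest of the 3 synaptotagmins. Syt4 and Syt7 share 566 and 384 exon bases with RNAs annotated on the opposite strand, and whether counting used strand is not given in the sources used here.

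All 3 Rab genes were highest in beta barcodes, and each kept the order beta, PP, delta, alpha. Rab3a (chr8:70754679-70758677), a Rab of synaptic vesicles and secretory granules, stood at 98.7 CPM in beta, 36.0 in PP, 29.4 in delta and 25.7 in alpha barcodes. The ratio of beta to alpha was 3.84 (3.25 to 4.58), and PP, delta and alpha did not differ between neighbours beyond counting error. Rab27a (chr9:73044854-73097629), the Rab that recruits granuphilin, stood at 136, 75.5, 67.2 and 53.2 in the same order, a beta to alpha ratio of 2.55 (2.27 to 2.88). Rab37 (chr11:115091431-115162236), a Rab found on insulin granules, stood at 144, 79.1, 59.6 and 41.6, a ratio of 3.46 (3.03 to 3.97). For Rab27a no class but beta stood apart from its neighbour, whereas for Rab37 delta also exceeded alpha beyond counting error. The Rab27a intervals of PP (61.9 to 91.3) and alpha barcodes (47.3 to 59.6), which are not neighbours, did not overlap. Rab3a shares 29 exon bases with Mpv17l2 on the opposite strand.

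Sytl4 (chrX:133936385-133981812, minus strand), the Rab27a effector, was the member most restricted to beta barcodes. It had 5061 UMIs in beta barcodes, or 140.2 CPM, against 47 UMIs in alpha, 19 in delta and 28 in PP barcodes, or 8.50, 14.3 and 19.8 CPM. Beta exceeded alpha 16.5-fold (12.4 to 22.5), delta 9.78-fold (6.25 to 16.3) and PP 7.09-fold (4.90 to 10.7). The 3 low classes did not differ from their neighbours beyond counting error. Over the wider step from PP (13.1 to 28.6) to alpha barcodes (6.24 to 11.3), the intervals of the levels did not overlap. Free RNA held Sytl4 at 101 CPM and could by itself give up to 89.5%, 77.4% and 76.0% of the level in alpha, delta and PP barcodes. The ratios above are therefore not corrected for free RNA, and with its largest amount taken off, the difference relative to the median gene was 6.72 on the log2 scale against alpha in place of 3.70. For Syt13 and Rab3a the same amount could give 20.6% and 23.3% of the level in alpha barcodes.

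Against the whole transcriptome, 6 of the 10 genes stood over 2-fold higher in beta than in alpha barcodes. The threshold was set relative to the median gene, and genes had to reach 20 CPM in 1 of the classes compared, which left out Stx1a in every comparison. The 6 of 9 genes were Syt4, Syt13, Rab3a, Rab27a, Rab37 and Sytl4, and none was over 2-fold lower. By the same rule 8.15% of 6709 genes were higher in beta and 7.68% lower. The median of the 9 was 1.15 on the log2 scale relative to the median gene, which itself was 0.34 higher in beta barcodes and by definition 0 on this scale. Snap25, at 0.05, followed the median gene, and Vamp2 and Syt7 lay at 0.36 and 0.26. Rab27a passed narrowly, at 1.01.

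Compared with delta barcodes, 4 of 9 genes were over 2-fold higher in beta: Syt13, Rab3a, Rab37 and Sytl4. Over all 7061 genes, 7.49% were higher and 7.89% lower. The median of the 9 was 0.99, with Rab27a and Syt4 just below the threshold at 0.99 and 0.94, and no gene of the 9 was lower. Against PP barcodes 3 of 9 were higher, namely Syt13, Rab3a and Sytl4, beside 6.51% of 6847 genes higher and 5.81% lower, and the median was 0.74. Snap25, at -0.43, was the only one of the 9 below the median gene there. Between alpha and delta barcodes none of the 8 genes past the minimum differed over 2-fold, against 3.55% of 6534 genes higher in alpha and 5.30% lower, with a median of -0.11. Whether the counts differ between comparisons was not tested.

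**Figure D2:**
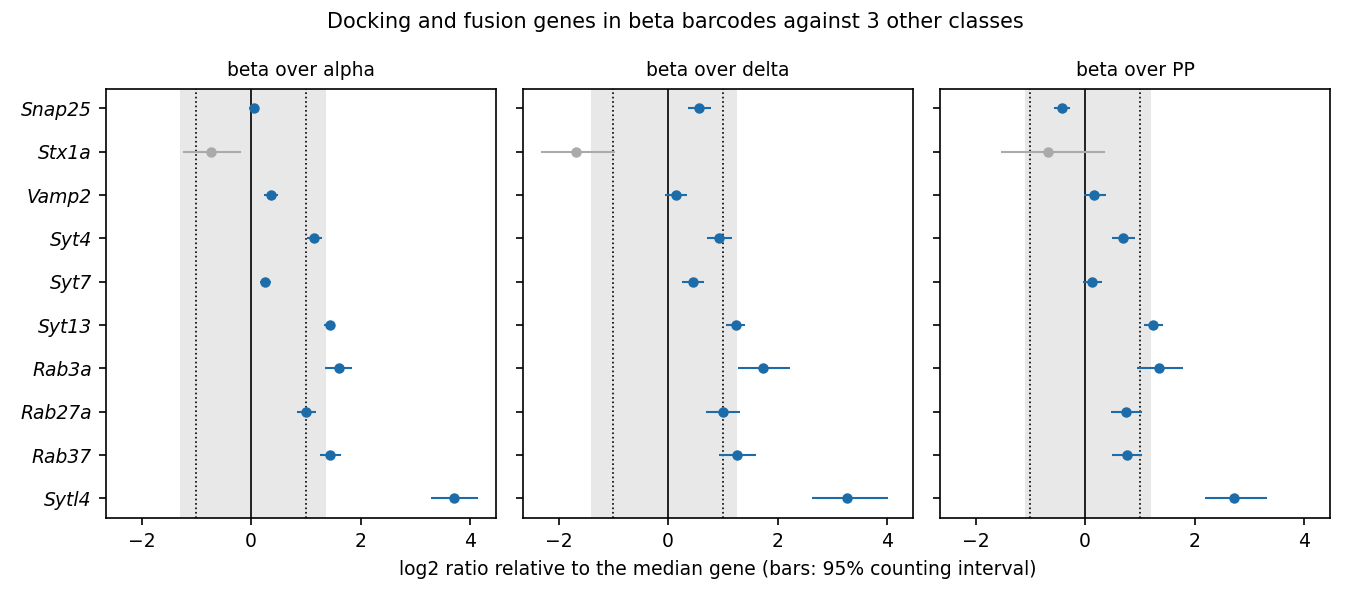
Log2 ratio of beta to alpha, delta and PP barcodes for the 10 genes, relative to the median gene (0), with exact 95% counting intervals. Grey bands span the 5th to 95th percentile of all genes past the level minimum, dotted lines mark 2-fold, and Stx1a (grey points) is below the minimum. Sytl4 lies at 3.70, 3.27 and 2.73, beyond the band in all 3 panels, and Snap25 at 0.05, 0.57 and -0.43.

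The family to which a gene belongs showed which isoform each class held. In 6 of 8 families the same gene had most UMIs in all 4 endocrine classes, and in the Rab3 and synaptotagmin-like families it did not. Of the plasma membrane syntaxins, Stx3 made up 63.3% of UMIs in beta, 62.4% in alpha, 59.7% in delta and 60.4% in PP barcodes, and Stx4a between 29.0% and 30.6%. In the SNAP25 family, Snap25 made up 66.9%, 71.2%, 58.6% and 80.9%, whereas in macrophage-marker barcodes Snap23 led with 70.7% of 75 UMIs. Snap47, the next of that family, reached 24.9% in delta barcodes, and Snap29 11.3%. Vamp8, a VAMP of late endosomes and some secretory granules, exceeded Vamp2 in all 4 classes, with 38.3% against 29.1% of the family in beta and 40.1% against 26.3% in alpha barcodes. Vamp3 made up between 11.6% and 14.5% over the 4 classes, and Vamp4 between 8.49% and 13.5%. Rab27a held 99.8% of its pair in beta, 98.9% in delta, 94.2% in alpha and 88.4% in PP barcodes, where Rab27b had 14 of 121 UMIs. Rab37 held 230 of the 242 UMIs of the pair it forms with Rab26 in alpha barcodes, and 98.5%, 96.3% and 99.1% in beta, delta and PP barcodes.

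Among the 4 endocrine classes, synaptotagmin use was most one-sided in beta barcodes. Syt13 made up 46.3% of synaptotagmin UMIs in beta, 30.7% in PP, 28.6% in delta and 27.9% in alpha barcodes. In alpha barcodes Syt13 and Syt7 were level, with 827 and 822 UMIs, and Syt11 reached 11.6%. Delta barcodes held further synaptotagmins: Syt1, the fast Ca2+ sensor of synapses, stood at 58.9 CPM against 1.38 in beta, Syt6 at 29.4 against 0.39 and Syt5 at 63.4 against 19.6. Syt5 also stood at 41.8 CPM in alpha barcodes.

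The Rab3 isoforms were mixed differently in each class. In beta barcodes Rab3a, Rab3b and Rab3d were nearly equal, with 32.7%, 32.4% and 34.5% of the family. Delta barcodes held mostly Rab3b, at 70.3% (65.6 to 74.6), a level of 221 CPM against 97.7 in beta, 95.3 in PP and 45.6 in alpha barcodes. Rab3c was 15.3% of the family in alpha barcodes and stood at 19.9 CPM there and 18.4 in PP, against 1.22 in beta and 1.51 in delta barcodes. Rab3a held 19.8% of the family in alpha, 15.4% in PP and 9.35% in delta barcodes.

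The leading synaptotagmin-like effector differed between classes. Sytl4 made up 84.6% of the family in beta barcodes, and Sytl2, another Rab27 effector, made up 70.7% (65.6 to 75.4) in alpha and 57.0% (48.5 to 65.3) in PP barcodes. Sytl2 stood at 1.41 CPM in beta, 5.28 in delta, 44.8 in alpha and 57.2 in PP barcodes, and free RNA could give at most 1.16% and 1.80% of the last 2 levels. Delta barcodes had few UMIs of the family, 49 in all, of which Sytl4 had 38.8% and Sytl1 34.7%, with Sytl5 at 10.2%. Their total level of these effectors was thus low whichever gene led.

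**Figure D3:**
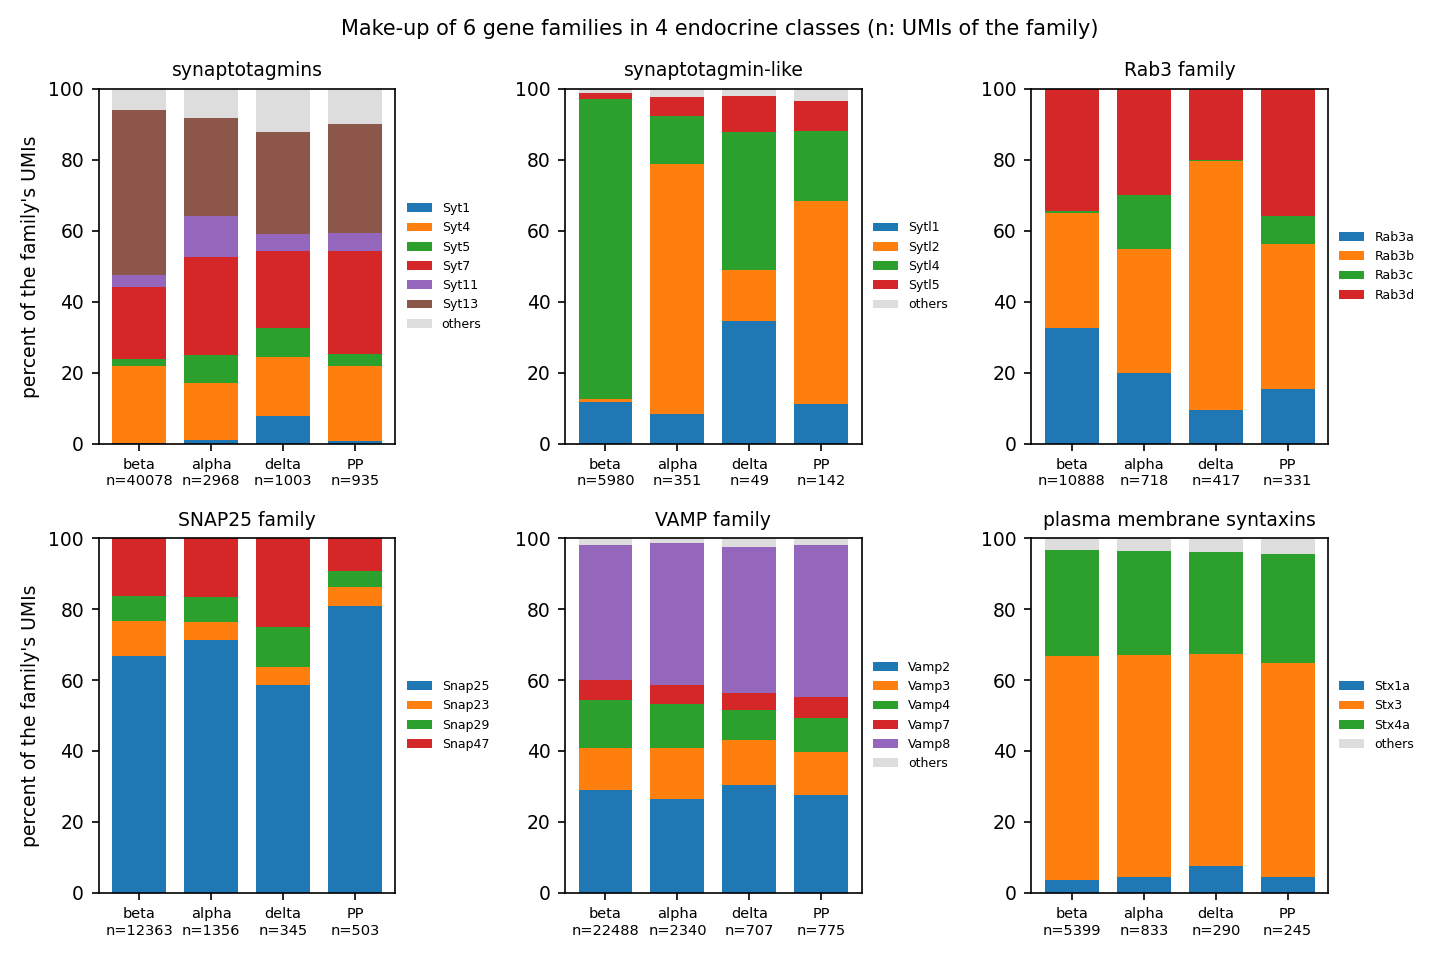
Share of each gene in its family's UMIs (percent, stacked bars, n is the family's UMIs) in beta, alpha, delta and PP barcodes, for 6 families. Genes under 5% in every class are pooled as others. Syntaxin and VAMP bars look alike across classes, while the lead passes from Sytl4 (84.6% in beta) to Sytl2 (70.7% in alpha), and Rab3b takes 70.3% in delta barcodes.

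The lists of docking, priming and fusion held 78 other genes, of which 37 to 40 were past the level minimum in each comparison. Against alpha barcodes, 38 were past the level minimum, of which 5 were higher in beta (Snap23, Rab3d, Rims3, Exph5 and Exoc7) and 3 lower (Syt5, Sytl2 and Stxbp5l), with a median of 0.17, beside 8.15% of all genes higher and 7.68% lower. Against delta barcodes 3 of 40 were higher and 5 lower, beside 7.49% and 7.89% of all genes. Against PP barcodes 2 of 39 were higher and 2 lower, beside 6.51% and 5.81%. These small counts were not read as different from the shares over all genes. Rims3, a short active zone protein, had the highest beta to alpha ratio among the 38 genes compared with alpha barcodes. It stood at 135 CPM in beta, 24.7 in PP, 9.06 in delta and 7.96 in alpha barcodes. Free RNA could give 95.1% of the last value. Exoc7, an exocyst subunit, stood at 76.3 in beta against 23.7 in alpha barcodes. Stxbp5l, a tomosyn that binds syntaxin and SNAP25, ran the other way with 14.0 in beta, 28.6 in alpha, 68.5 in PP and 122 in delta barcodes. Cadps, which primes granules, stood at 51.2 in beta and 6.79 in delta barcodes. Baiap3, of the Unc13 family, stood at 41.2 in beta and 74.0 in delta barcodes, and Stxbp3, which binds syntaxins, at 29.5 in beta and 32.5 in alpha barcodes.

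Detection was compared at a common depth. Each barcode was thinned to 3000 non-hormone UMIs, which left out 47 beta and 1 PP barcodes, and the share with at least 1 UMI was counted. Before thinning, median non-hormone depth was 10350 in beta, 10595 in alpha, 7232 in delta, 10378 in PP and 10298 in macrophage-marker barcodes. Syt13 was seen in 77.8% of beta barcodes (98.1% unthinned), 32.9% of alpha (72.0%), 45.6% of delta (78.5%) and 49.1% of PP barcodes (87.2%), against 9.68% of macrophage-marker barcodes (25.8%). Sytl4 was seen in 33.8% of beta (71.8% unthinned) but in 2.55% of alpha (8.92%), 6.04% of delta (10.1%) and 7.76% of PP barcodes (18.8%). Macrophage-marker barcodes, which should lack the gene, gave 3.23% (4.84% unthinned), from 2 of 62 barcodes, so the alpha share was not above this background at 3000 UMIs. At 5000 UMIs Sytl4 was seen in 4.49% of alpha barcodes and in 0 of 62 macrophage-marker barcodes. Snap25 was seen in 56.9% of PP and 49.3% of beta barcodes (90.6% and 86.9% unthinned) and in 4.84% of macrophage-marker barcodes (14.5%). Vamp2 was seen in 44.8% of PP and 40.2% of beta barcodes, and Stx1a in 4.03% of delta and 1.31% of beta barcodes. The other 7 genes were seen in the largest share of beta barcodes among the 4 endocrine classes. At 5000 UMIs the order for Vamp2 was reversed, with 58.3% of PP and 61.0% of beta barcodes.

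The 2 Rab27 effectors were also counted together, in barcodes thinned to 5000 UMIs. Of 468 alpha barcodes, 89 had Sytl2 alone, 18 Sytl4 alone and 3 both, and of 3152 beta barcodes 1504 had Sytl4 alone, 8 Sytl2 alone and 7 both. Free RNA could give most of the Sytl4 in alpha barcodes and of the Sytl2 in beta barcodes, so the counts of both are not read further. At 3000 UMIs the median beta barcode showed 4 of the 10 genes, the median PP barcode 3 and the median alpha or delta barcode 2. None of the 10 was seen in 0.56% of beta, 9.55% of alpha and 71.0% of macrophage-marker barcodes. The variance of UMIs per barcode over their mean, also at 3000 UMIs, lay between 0.97 and 1.23 for all 10 genes in beta barcodes, and Syt4 was the highest. Poisson counts give 1. Thinning itself moves the ratio toward 1, so values near 1 do not tell how evenly the barcodes express a gene. At 5000 UMIs the ratio was 1.43 for Syt4 and 1.24 for Snap25.

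**Figure D4:**
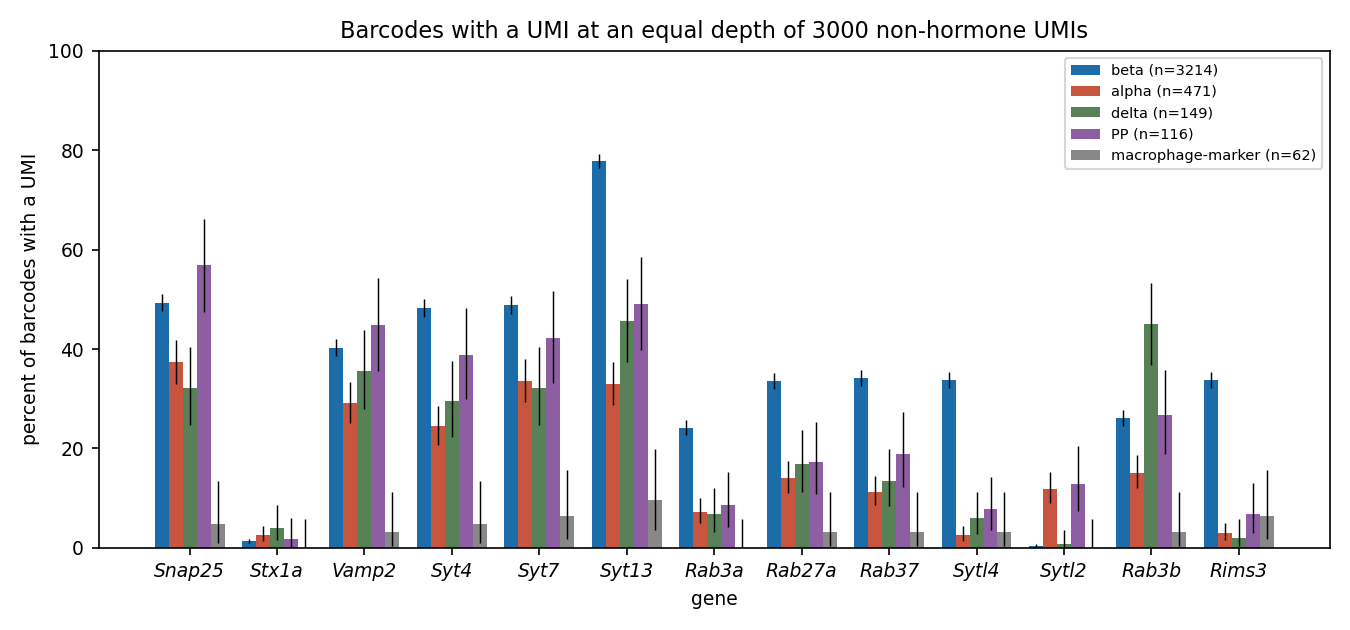
Share of barcodes with at least 1 UMI (percent, exact 95% binomial intervals) after thinning each to 3000 non-hormone UMIs, for the 10 genes and Sytl2, Rab3b and Rims3, by class. Syt13 reaches 77.8% of beta barcodes, Sytl4 33.8% of beta and 2.55% of alpha, and Sytl2 11.9% of alpha and 0.44% of beta barcodes.

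Beta barcodes varied among themselves along insulin share and depth. From barcodes with 30 to 40% insulin (473) to those with at least 60% (391), Rab3a went from 82.4 to 130.3 CPM, a ratio of 1.58 (1.40 to 1.79), while Syt7 went from 267 to 178 (0.67) and Snap25 from 255 to 191 (0.75). The ratios of Rab3a, Syt7 and Snap25 lay at percentiles 92.1, 14.7 and 27.8 among 6808 genes. The median gene changed by -0.14 on the log2 scale. Median depth went from 21534 to 34322 UMIs along the same bins. Among barcodes of 19359 to 29467 UMIs, the interquartile range, the ratios were 0.87 (0.65 to 1.16) for Rab3a, 0.81 (0.68 to 0.96) for Syt7 and 0.96 (0.82 to 1.12) for Snap25. Within this depth range the Rab3a interval included 1 and its value lay on the other side of 1.

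Levels of the same genes also moved with UMI total. In 4 equal groups by UMI total, from 5665 to 88243 UMIs, Rab3a was 71.9, 84.7, 93.3 and 125 CPM from the lowest to the highest. The highest over the lowest was 1.74 (1.56 to 1.94), at percentile 98.3 among 6705 genes, where the median gene had 0.95. Among barcodes with 45 to 55% insulin it was 1.80 (1.51 to 2.14), so it was as large within a narrow range of insulin share. Snap25 and Syt7 ran down, with ratios of 0.71 (0.66 to 0.75) and 0.69 (0.65 to 0.73), at percentiles 9.22 and 7.50 among genes, and Sytl4 was nearly level at 1.10 (1.01 to 1.19). The mitochondrial share went from 4.16% to 2.42% along the same groups, and its part in the differences was not tested.

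**Figure D5:**
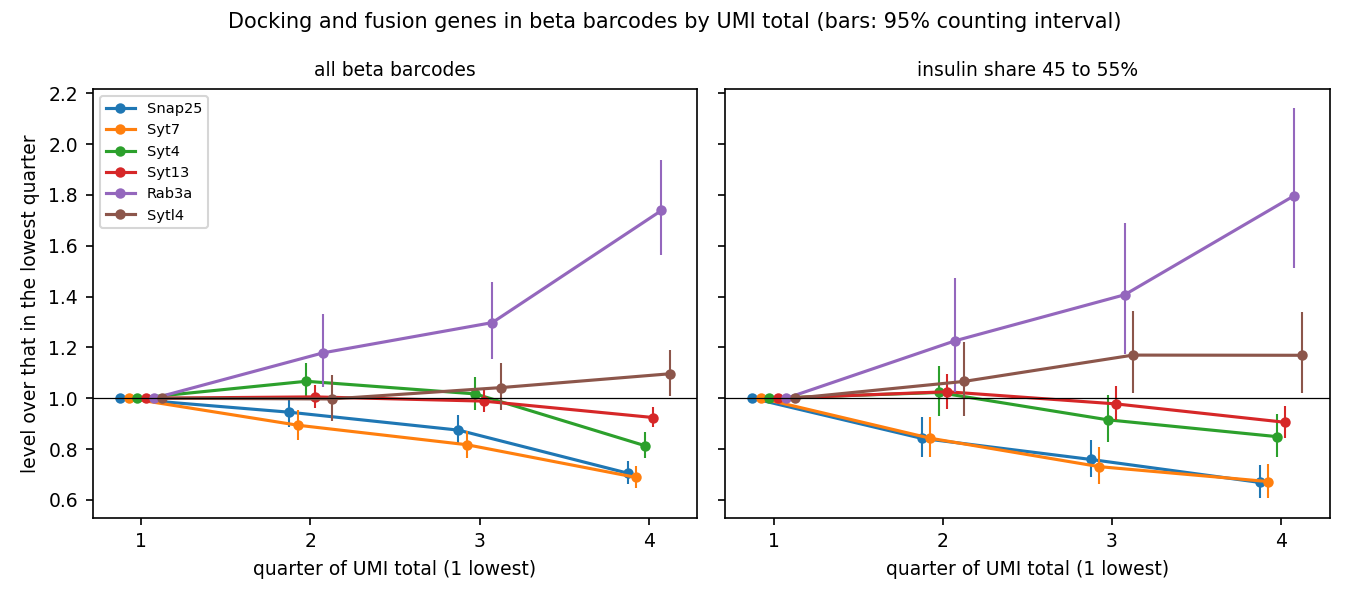
Level of 6 genes in beta barcodes over that in the lowest of 4 equal groups by UMI total, for all beta barcodes and for those with 45 to 55% insulin (points, with exact 95% counting intervals of the ratio). In the highest group Rab3a lies at 1.74 and 1.80, and Snap25 and Syt7 between 0.67 and 0.71.

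Barcodes that met 2 or more hormone limits were few, and their counts small. The 35 with Gcg and Ppy held Sytl2 at 24.3 CPM (11.1 to 46.2) and Sytl4 at 8.11. The 423 with Gcg alone held 47.2 and 8.71, and the 117 with Ppy alone 57.2 and 19.8. Of the 35, 1 barcode also met the Sst limit and is counted again in the next set. The 14 with Gcg and Sst held Sytl2 at 34.0 (14.7 to 67.0) and Syt1 at 29.7 (12.0 to 61.3), from 8 and 7 UMIs. The 137 with Sst alone held 5.84 and 61.7, and the 423 with Gcg alone 47.2 and 4.46. No doublet caller was run, so 2 cells in 1 droplet and 1 cell with both hormones cannot be told apart. The 388 barcodes with no class and neither macrophage nor endothelial markers had a median insulin share of 20.2%. Their sum of the 10 genes was 1654 CPM, between the beta and PP sums. They were not free of other markers. Their erythroid and mesenchymal lists summed to 4603 and 106 CPM, against 46.2 and 2.33 in beta barcodes, and 3 barcodes held over 0.5% haemoglobin. The erythroid list also summed to 4534 CPM in PP barcodes, where 1 barcode held 6361 haemoglobin UMIs, and to 20958 in endothelial-marker barcodes. In the 388 barcodes the lymphocyte list summed to 186 against 144 in beta barcodes. Cd79a, at 132 against 143, made up most of both sums. Cd79b stood at 29.4 against 0.78 and Ms4a1 at 22.3 against 0.39. The ductal sum was no higher than in beta barcodes, but Krt18 made up most of it (376 against 502). Sox9 stood at 11.1 against 0.50, Krt19 at 6.10 against 1.80 and Muc1 at 4.70 against 0.80. The acinar sum was no higher either, with Cela1 alone higher, at 20.2 against 4.99.

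By pattern over the 4 endocrine classes and the 2 other marker groups, the genes nearest to Sytl4 among 8709 were Ddit3, Atf5 and Cox6a2, at distances of 0.24, 0.37 and 0.42 on centred log2 levels with 20 CPM added. The added 20 CPM exceeds the level of Sytl4 in every group but beta and shrinks its ratios, so genes with smaller plain ratios can lie near it. Ddit3 stood at 1128 CPM in beta and 204 in alpha barcodes. Nearest to Snap25, the gene with the lowest beta to alpha ratio among the 9 past the level minimum, were Nkx2-2, Syt7 and Scgn, at 0.36, 0.51 and 0.62. Ddit3 and Atf5 are transcription factors of the stress response, and Nkx2-2 is an endocrine transcription factor. These 6 groups come from 1 library and share its depth and its free RNA.

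What was held of the TG matrix came to 782 UMIs in 547 entries over the first 81 barcodes, none with more than 110 UMIs. None of these UMIs was of the 10 genes, where the share of the 10 in WT droplets of at most 200 UMIs would give 0.682. A count of 0 allows up to 3.69 UMIs, so the value does not tell the groups apart.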

How the data were processed

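The authors deposited UMI counts per gene and barcode from the 10x single cell 3′ protocol, version 2, per the labels' protocols, as an unfiltered matrix of 737280 barcodes. Of tools and builds, FastQC, Trimmomatic and mm10 appear in the submitters' processing notes. No aligner or counter is named there, so neither is given in the sources used here. The WT matrix was whole. The copy of the TG matrix ended after 547 of 23580133 entries, so the groups were not compared.

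Barcodes were kept at 10% of the 99th percentile of UMIs over the top 3000, or 5610. The counts were summed over barcodes of a class and divided by non-hormone UMIs. No model across genes was fitted, since cells of 1 library are not replicates. Intervals are exact (Poisson for levels, binomial for shares, conditional binomial for ratios) at 95%. Ratios for calls had 0.5 UMI added. The floor for a count of 0 was 3 UMIs. No doublet caller was run; barcodes meeting 1 limit only and barcodes under 40000 UMIs were tried instead. Named genes were the 10, any gene with at least 10% of its family in an endocrine class, the extremes of the other pathway lists, and the 3 nearest patterns; others (Syt1, Syt5, Syt6, Snap23, Exph5) were named after their values were seen. Promoters and miR-203-3p came from RefSeq, and 3′ UTRs and gene positions from GENCODE M21. Scripts used Python 3.11.15, numpy 2.4.6, scipy 1.17.1 and pandas 2.3.3, and edgeR 4.0.16 gave TMM factors in 1 alternative. They were tested on simulated data. The 10 genes and all lists were chosen with earlier results of these data known.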

Additional observations from a re-analysis of the deposited data

How the results depend on the processing

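Over 15 alternatives, each of the 6 genes over 2-fold higher in beta than in alpha barcodes kept that call, as did Syt13, Rab3a, Rab37 and Sytl4 against delta and Syt13, Rab3a and Sytl4 against PP barcodes. Rab27a, at the threshold against delta, passed in 11 alternatives, Syt4 in 7, and Rab37 against PP in 3. The count of genes past 2-fold against delta went from 4, all higher in beta, to 7 with no level minimum, 6 higher and Stx1a lower, where 39.3% of genes passed, and the count against PP from 3 to 6 at 1.5-fold, where 30.2% passed. No called gene changed direction, while between alpha and delta barcodes the uncalled values of Syt7, Rab3a and Rab27a, all near 0, took both signs. The number of families led by the same gene in all 4 classes was 5 or 6; Syt7 led in alpha barcodes with 1-limit barcodes only, below 40000 UMIs, or with free RNA taken off, and the last also put Syt7 first in PP and Sytl1 in delta barcodes. Stricter hormone limits put Rab3d first in PP barcodes. Leaving out barcodes over 15% mitochondrial or 0.5% haemoglobin UMIs, an alternative chosen after seeing the data, left the counts at 6, 4, 3 and 0. No paired analysis was possible because each group has 1 library. Depth limits Stx1a and the synaptotagmin-like family in delta barcodes, with 22 and 49 UMIs there.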
